A study of Caenorhabditis elegans with 16 samples.

Results

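The combined effect of the alleles edc-3(ok1427) and edc-4(qe49) was examined in embryos of Caenorhabditis elegans. All 16 libraries of the series entered, 4 from each of 4 genotypes, since a 2 by 2 design needs every genotype. The genotypes were N2, the wild-type strain (WT); strain RB1311 with edc-3(ok1427) (edc-3); strain FD135 with edc-4(qe49) (edc-4); and strain FD146 with edc-3(ok1427); edc-4(qe49) (double). The sample labels were followed for the double mutant, for which the series' design text names FD135. Each genotype had 4 independent biological replicates, numbered 2 to 5. Per the labels, embryos of mixed stages were freed by bleaching from gravid adults grown at 16 °C, and their total RNA was made into stranded, ribosomal RNA depleted libraries, with no treatment in any group. Each genotype is 1 strain, and how the strains were outcrossed is not given in the sources used here. An allele and any other difference between its strain and N2 therefore cannot be told apart.

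The proteins EDC-3 and EDC-4 enhance decapping by gathering the decapping enzyme DCAP-2 and its activator DCAP-1 on messenger RNAs bound for degradation. Removal of the cap exposes the transcript to the exonuclease XRN-1, and the factors of this step collect in cytoplasmic granules called processing bodies. In early embryos, decay of this kind takes part in the clearance of maternal transcripts. For each gene, the interaction is double minus edc-3 minus edc-4 plus WT, with levels on the log2 scale. A value of 0 means that the fold changes of the single mutants multiply in the double mutant. A positive value means that the double mutant was higher than their product, and a negative value that it was lower.

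The libraries held 34.1 to 52.9 M counts, with a median of 44.0 M. Without the edc-4 allele, the edc-4 transcript averaged 168 ± 20.5 CPM (WT) and 176 ± 22.8 CPM (edc-3); with it, the averages were 31.9 ± 2.62 CPM (edc-4) and 26.1 ± 4.37 CPM (double), each SD with n = 4. The edc-3 transcript was at 85.4 ± 11.5, 62.4 ± 5.55, 92.5 ± 16.3 and 72.8 ± 7.49 CPM in WT, edc-3, edc-4 and double, and a count over the whole gene does not check a deletion inside it. Embryonic markers were present in every library, with summed levels of 837 to 2360 CPM for 41 tested early zygotic genes and 5420 to 11306 CPM for 36 muscle genes. Vitellogenins, yolk genes of the adult intestine, summed to 0.989 to 2.74 CPM, and 1 of 6 was tested. On the first principal component, with 36.05% of the variance, replicate 4 had the lowest score in WT (-52.3) and the highest scores in edc-4 and double (53.8 in both). A stage score, the mean log2 level of the early zygotic genes minus that of the muscle genes, had an interaction of -0.14 over group means. The share of counts in annotated ribosomal RNA was 20.4 ± 2.36%, 18.4 ± 1.23%, 18.5 ± 1.12% and 21.8 ± 2.07% for WT, edc-3, edc-4 and double (SD, n = 4 each).

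Of 16880 genes tested, 6 (0.0355%) passed an adjusted p of 0.05 for the interaction by edgeR's quasi-likelihood test. The double mutant was above the product of the single mutants at 2 genes (0.0118%), rer-1 and T25D10.4. It was below the product at 4 genes (0.0237%), namely the small nucleolar RNA gene F59C6.15 and the protein-coding genes F46C5.2, F46C5.4 and nas-25. At an unadjusted p of 0.05 the test passed 274 genes (1.62%), 127 of them below the product and the rest above it. The median interaction over all tested genes was -0.02, with 7672 (45.45%) above 0. The 95% interval lay inside -1 to 1 for 11285 genes (66.85%), and for the others the libraries do not set the interaction to within that range. The genes called were on chromosome II (5 of 2900 tested) and chromosome I (1 of 2565), with 0 on the other chromosomes.

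The 6 genes fell into patterns that can be read from the libraries without a model. In 5 of them the 4 WT libraries lay entirely above or entirely below the other 12. The 3 mutant groups overlapped each other at 4 of these 5, and at T25D10.4 the edc-3 libraries lay below all others. In the sixth, F59C6.15, the edc-3 libraries lay above the other 12. Over all tested genes, WT stood apart in this way at 33 genes (0.195%), 21 above (0.124%) and 12 below (0.0711%). The edc-3 libraries did so at 29 genes (0.172%; 0.0889% above, 0.0829% below), those of edc-4 at 13 (0.077%; 0.0415% above, 0.0355% below) and those of the double mutant at 38 (0.225%; 0.101% above, 0.124% below). No gene called for the interaction had the double mutant alone at its extreme.

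**Figure D1:**
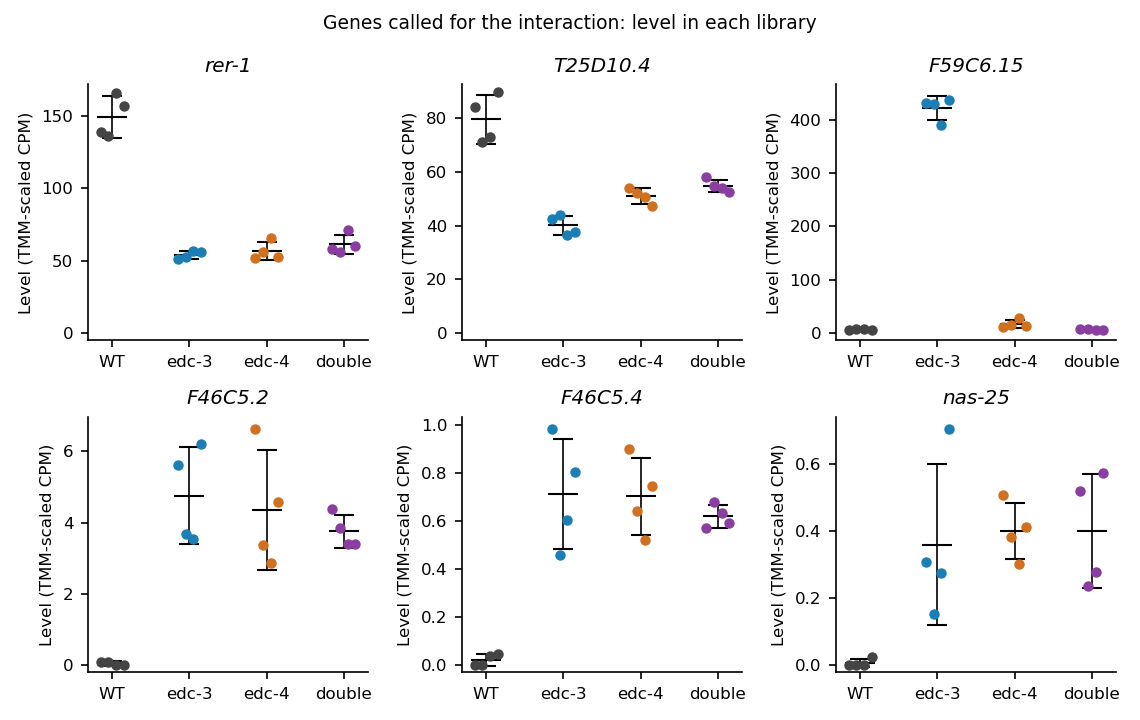
Level of the 6 genes called for the interaction in each library, as CPM scaled with TMM factors (y axis, linear, a scale of its own in each panel) by genotype (x axis). Points are libraries, numbers 2 to 5 from left to right, with the mean as a black dash and bars of 1 SD (n = 4). WT stands apart in every panel but that of F59C6.15, where edc-3 stands apart.

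The gene rer-1 (WBGene00009783, chromosome II, 8811370 to 8812633, WBcel235), whose yeast counterpart returns membrane proteins to the endoplasmic reticulum, was lower in all 3 mutants than in WT, by similar amounts. Its levels were 139, 135.9, 166 and 156 CPM in WT replicates 2 to 5, and 50.7, 52.6, 56.2 and 56.1 CPM in edc-3. They were 51.8, 55.7, 65.5 and 52.6 CPM in edc-4, and 57.7, 56.0, 70.8 and 60.3 CPM in the double mutant. All 12 mutant libraries lay below all 4 WT libraries, and the mutant groups overlapped each other. On the log2 scale rer-1 fell by 1.47 (edc-3), 1.40 (edc-4) and 1.29 (double) (edgeR adjusted p = 3.88e-07, 9.17e-07 and 2.32e-06). Products of the single mutants' fold changes would have put the double mutant at 20.4 CPM, and its mean was 61.2 ± 6.66 CPM (SD, n = 4), 3.003 times as high. The interaction was 1.59 (SE 0.15, 95% interval 1.27 to 1.90; edgeR adjusted p = 2.35e-05). The double mutant differed from edc-3 by 0.18 (95% interval -0.04 to 0.41) and from edc-4 by 0.12 (95% interval -0.10 to 0.34), neither past the threshold.

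The protein-coding gene T25D10.4 (WBGene00020801, chromosome II, 6407535 to 6410281) also fell in all 3 mutants. WT replicates 2 to 5 were at 84.1, 71.1, 73.1 and 89.9 CPM, and edc-3 at 42.6, 43.8, 36.7 and 37.6 CPM. The edc-4 libraries were at 53.95, 52.3, 50.6 and 47.2 CPM, and those of the double mutant at 58.0, 54.8, 54.1 and 52.5 CPM. Here WT lay above the other 12 libraries and edc-3 below them, with edc-4 and the double mutant overlapping in between. The double mutant stood at 54.9 ± 2.29 CPM (SD, n = 4), against 25.8 CPM for the product of the single mutants. The interaction was 1.09 (SE 0.14, 95% interval 0.79 to 1.39; edgeR adjusted p = 0.00145). The difference of the double mutant from edc-3 was 0.45 on the log2 scale (95% interval 0.24 to 0.66), with an edgeR adjusted p of 0.283 over all genes. An antisense neighbour, T25D10.6, overlaps 218 bases of T25D10.4, and whether the authors' counting used the strand is not given in the sources used here.

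A further 3 genes on chromosome II were nearly silent in WT and were present in every mutant library. F46C5.2 (WBGene00009779, 8828196 to 8829289) had 4, 5, 0 and 0 counts in WT replicates 2 to 5, and 823, 820 and 596 counts in all over the 4 libraries of edc-3, edc-4 and double. Its pooled level relative to WT was 99.5-fold in edc-3 (95% interval 52.4 to 218), 88.7-fold in edc-4 (46.7 to 194) and 75.4-fold in the double mutant (39.7 to 165), where the intervals are exact Poisson limits on the WT total and cover counting error only. F46C5.4 (WBGene00009780, 8836078 to 8839981) had 0, 0, 2 and 2 counts in WT and 15 to 45 in each mutant library. The gene nas-25 (WBGene00003544, 8826069 to 8828215), which encodes a metalloprotease of the astacin family, had a single count in WT, in replicate 5, and 5 to 36 counts in each mutant library. For all 3 genes the WT libraries lay below the other 12, and the mutant groups overlapped.

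At none of these 3 genes did the double mutant differ past the threshold from either single mutant by edgeR's test. F46C5.2 stood at 4.76 ± 1.35, 4.37 ± 1.68 and 3.76 ± 0.467 CPM in edc-3, edc-4 and double (SD, n = 4 each). F46C5.4 stood at 0.713 ± 0.230, 0.703 ± 0.161 and 0.620 ± 0.0485 CPM in the same groups, and nas-25 at 0.360 ± 0.239, 0.400 ± 0.0841 and 0.401 ± 0.169 CPM. The interaction was -6.72 (SE 0.60) for F46C5.2, -5.05 (SE 0.60) for F46C5.4 and -5.47 (SE 0.94) for nas-25, with edgeR adjusted p = 1.32e-05, 5.16e-04 and 0.0449. The sizes of these values depend on the few WT counts and on how the fit treats zeros. With effects taken to add in CPM, the interactions of the 3 genes were -1.644, -1.505 and -1.211 times the gene's mean level. By limma their adjusted p were 0.078, 0.128 and 0.9999, so they passed on the log2 scale only. At such low counts, a missed threshold does not show that their effects add in CPM. F59C6.15, rer-1 and T25D10.4 passed on both scales. The call of nas-25 held in 3 of 16 fits that each left out 1 library, and nas-25 shares 20 bases with F46C5.2 on the other strand.

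F59C6.15 (WBGene00045164, chromosome I, 10516978 to 10517150, minus strand), annotated as a small nucleolar RNA, had a different pattern from the rest. Small nucleolar RNAs guide chemical modification of ribosomal and other RNAs. WT replicates 2 to 5 stood at 5.89, 7.598, 7.69 and 5.903 CPM and edc-3 at 431, 429, 390 and 438 CPM. The edc-4 libraries were at 10.7, 16.1, 27.6 and 14.2 CPM, and those of the double mutant at 7.04, 6.93, 6.61 and 5.28 CPM. The edc-3 libraries thus lay above all others, the edc-4 libraries lay above all of WT and the double mutant, and the double mutant overlapped WT.

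The rise of F59C6.15 in edc-3 was not present in the strain carrying both alleles. Its log2 fold change was 5.96 in edc-3 against WT (95% interval 5.44 to 6.48), and -1.41 in the double mutant against edc-4 (95% interval -1.85 to -0.97), with edgeR adjusted p = 6.13e-11 and 0.0155. Against WT the gene rose by 1.34 in edc-4 (95% interval 0.90 to 1.77; edgeR adjusted p = 0.0057) and differed by -0.07 in the double mutant (95% interval -0.51 to 0.37; adjusted p = 0.888). The product of the single mutants would have put the double mutant at 1065 CPM, and its mean was 6.46 ± 0.811 CPM (SD, n = 4). The interaction was -7.36 (SE 0.32, 95% interval -8.03 to -6.70; edgeR adjusted p = 1.22e-10), the largest in size of the 6 genes called. No other annotated gene overlaps F59C6.15, piRNA genes left aside.

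**Figure D2:**
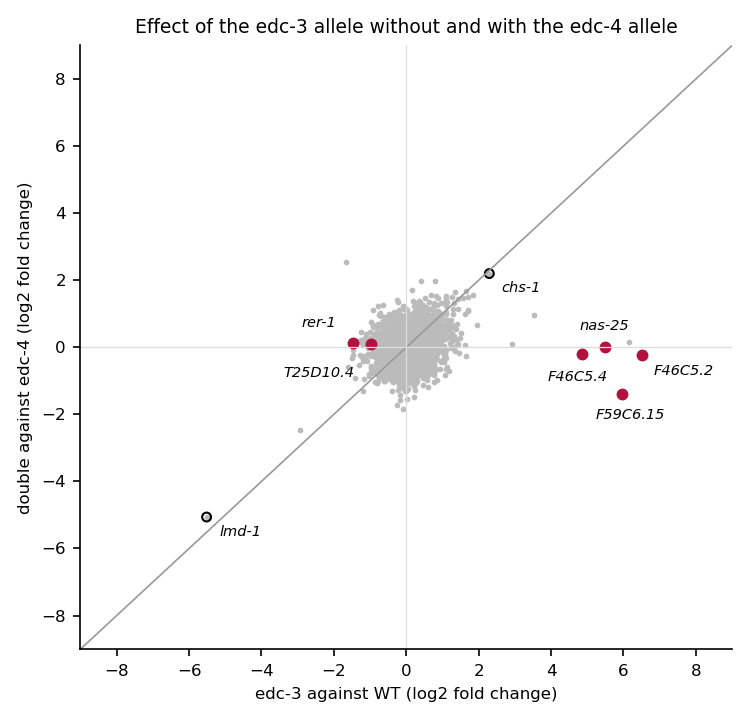
Log2 fold change of edc-3 against WT (x axis) and of the double mutant against edc-4 (y axis) for all 16880 tested genes, where grey dots are genes, red dots are the 6 genes called for the interaction and open circles are chs-1 and lmd-1. The diagonal marks equal effects; F59C6.15, F46C5.2, F46C5.4 and nas-25 lie far to the right near or below 0, and chs-1 and lmd-1 lie near the diagonal.

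The genes next to those called were examined by position. Of 24 other tested genes within 50 kb of rer-1, 8 had WT apart from the other 12 libraries (4 above, 4 below), against 0.195% of all tested genes. For the interaction 3 were called by edgeR, against 0.0355% of all tested genes. DESeq2 and limma voom called 5 each, adding F46C5.7 and F46C5.9. Over all 16880 tested genes these 2 tools called 17 and 8. The 4 genes with WT above were appg-2, pho-13 and F46C5.9 at lower coordinates than rer-1 and F46C5.10 at higher ones, and the 4 with WT below all started 14.7 kb or more beyond rer-1. F46C5.9, which starts 0.641 kb from rer-1, was at 138 ± 7.55 CPM in WT and at 66.5 ± 6.60, 70.1 ± 16.5 and 75.6 ± 13.6 CPM in edc-3, edc-4 and double (SD, n = 4 each). Its interaction of 1.16 (SE 0.21; edgeR adjusted p = 0.0641) was the first value outside the threshold. It passed by DESeq2 (adjusted p = 0.0041), limma voom (0.0409) and limma with effects additive in CPM (0.0104). In edgeR it passed with the replicate block (adjusted p = 0.0121), with the stage covariate (2.52e-07), with no filter (0.0042), without the libraries numbered 4 (2.73e-04) and without edc-4 replicate 4 (0.0021). The acid phosphatase family gene pho-13 was at 16.0 ± 2.67 CPM in WT and at 5.70 ± 1.10, 4.88 ± 1.89 and 4.18 ± 0.672 CPM in the mutants in the same order. Its interaction was 1.26 (SE 0.32, edgeR adjusted p = 0.750). It passed by limma with effects additive in CPM (adjusted p = 0.0442) and in edgeR with the stage covariate (0.0264). F46C5.7 had 0 counts in every WT library and 2 to 20 counts in each mutant library. The exact Poisson upper limit on its WT total (95% interval) was 3.69 counts. Against that limit its pooled level was 10.3-fold in edc-3, 8.98-fold in edc-4 and 10.2-fold in the double mutant. These lower limits cover counting error in WT only. F46C5.7 shares 657 bases with F46C5.4 on the same strand.

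Around T25D10.4, 5 of 29 other tested genes had an unadjusted p under 0.05 for the interaction, against 1.62% of all tested genes. All 5 had positive values. Of the 29, 0 passed after adjustment by edgeR's test or limma voom, against 2 (T25D10.1 and K03H9.10) by DESeq2, which called 17 genes in all. WT lay above the other 12 libraries at 4 of the 29, against 0.124% of all tested genes. Among them T25D10.1 was at 7.55 ± 1.23 CPM in WT and at 3.53 ± 0.740, 3.39 ± 0.629 and 3.72 ± 0.689 CPM in edc-3, edc-4 and double (SD, n = 4 each). Its interaction was 1.23 (SE 0.27, edgeR adjusted p = 0.363), and in edgeR it passed with the stage covariate. The noncoding RNA gene K03H9.10 was at 2.33 ± 0.130, 0.973 ± 0.104, 0.862 ± 0.0281 and 0.992 ± 0.422 CPM in the 4 groups in the same order. Around F59C6.15, 0 of 31 other tested genes had an unadjusted p under 0.05 by edgeR's test, against 1.62% of all tested genes. WT stood apart at 0 of the 31, against 0.195% of all tested genes.

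**Figure D3:**
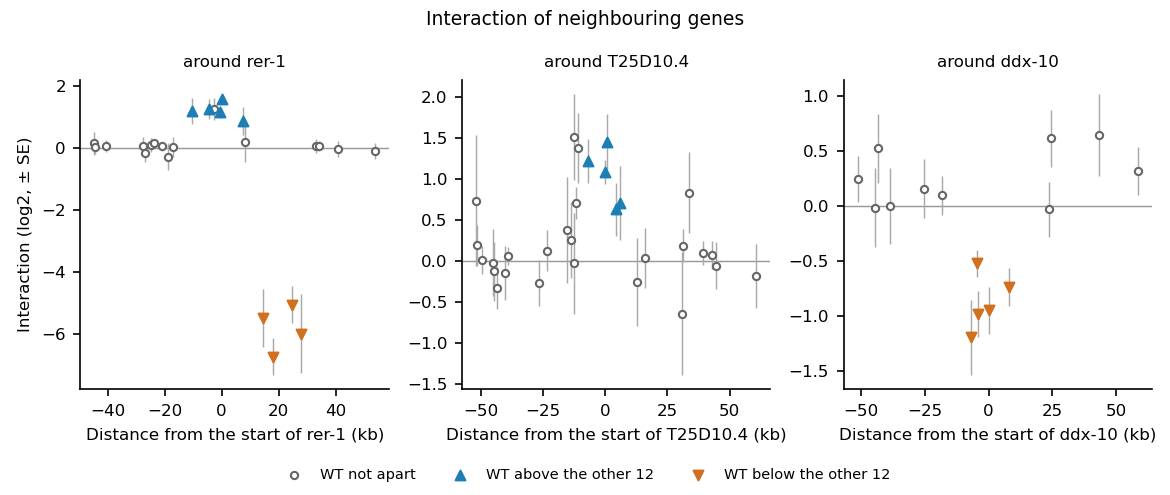
Interaction in log2 (y axis, with its own range in each panel; bars are 1 SE) of tested genes around rer-1, T25D10.4 and ddx-10, against the distance in kb between start sites along the chromosome (x axis). Filled triangles are genes whose 4 WT libraries lie above (upward) or below (downward) the other 12. They cluster at the centre of the panels of T25D10.4 and ddx-10. Around rer-1 the upward ones lie between -10.24 and 7.658 kb, and the downward ones between 14.7 and 27.95 kb.

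With rer-1 included, 14 genes (0.0829% of those tested) were called against WT in all 3 mutants. They include T25D10.4, where the edc-3 libraries lay below all others. The direction was the same in all 3 mutants for 14 of 14, and none was called between the double mutant and either single mutant, comparisons in which 5 genes (0.0296%, against edc-4) and 6 genes (0.0355%, against edc-3) were called in all. These comparisons share libraries: the 3 mutants were each set against the same WT libraries. WT stood apart at 14 of 14, against 0.195% of all tested genes, and the choice of genes called against WT in all 3 mutants favours this. The interaction had the sign opposite to the change at 14 of 14 and was called at 5 by edgeR's test, at 7 by limma voom and at 11 by DESeq2. Over all 16880 tested genes these tools called 6 (0.0355%), 8 and 17. Since the same WT libraries enter the interaction and the choice of these genes, the shared sign and these counts are a description. Of the 14 genes, 7 were lower and 7 higher in the mutants.

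The 14 genes lay in 3 stretches of the genome (WBcel235). On chromosome II, 8 genes (appg-2, pho-13, F46C5.9, rer-1, nas-25, F46C5.2, F46C5.4 and F46C5.7) spanned 39.1 kb from 8801130 to 8840257, and 3 genes (T25D10.1, T25D10.4 and K03H9.10) spanned 7.56 kb from 6403401 to 6410956. On chromosome I, 3 genes spanned 20.4 kb from 2485861 to 2506259, and none of these was called for the interaction by edgeR with all 16 libraries. They were eif-3.I, a subunit of translation initiation factor eIF3; ddx-10, a DEAD-box RNA helicase; and Y23H5B.5. Mean levels of eif-3.I were 373 ± 30.3, 399.9 ± 33.1 and 379 ± 35.8 CPM in edc-3, edc-4 and double (SD, n = 4 each), and the WT libraries stood at 238, 128, 213 and 221 CPM. All 4 of these lay below the other 12, at 332 to 438 CPM.

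Within this stretch of chromosome I the interaction was -0.98 for eif-3.I (SE 0.21; edgeR adjusted p = 0.337), -0.95 for ddx-10 (SE 0.22; adjusted p = 0.416) and -0.74 for Y23H5B.5 (SE 0.17; adjusted p = 0.478). None passed the threshold by edgeR or limma voom, and eif-3.I and ddx-10 passed it by DESeq2. In edgeR eif-3.I also passed with the stage covariate (adjusted p = 0.0251) and with no filter (0.0344). The double mutant differed from edc-3 by 0.02 at eif-3.I (95% interval -0.29 to 0.34) and by 0.11 at ddx-10 (95% interval -0.21 to 0.43). The neighbouring gene abtm-1, for a mitochondrial ABC transporter, was at 97.8 ± 10.8 CPM in WT and at 134 ± 2.17, 132 ± 3.12 and 126 ± 4.98 CPM in edc-3, edc-4 and double (SD, n = 4 each). Its interaction was -0.52 (SE 0.12, edgeR adjusted p = 0.498). It passed by DESeq2 and, in edgeR, with the stage covariate. The gene ddx-10 was not called for the interaction and belongs to a stretch picked for differing from WT in all 3 mutants. Of the 14 other tested genes within 50 kb of ddx-10, WT lay below the other 12 libraries at 4, against 0.0711% of all tested genes. These 4 include eif-3.I and Y23H5B.5 of the same stretch, so the count is a description.

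Genes called against WT in the double mutant and in neither single mutant did not pass edgeR's test of the interaction. There were 14 such genes (0.0829%), among 35 (0.207%) called in the double mutant against WT, and 0 of the 14 passed the interaction test by edgeR or limma voom. An unadjusted p under 0.05 was reached by 2, against 1.62% of all tested genes, and DESeq2 called 1, Y102A5C.36. Their interactions ran from -1.69 to 0.98, with a median of -0.05. The lowest was Y102A5C.36 on chromosome V, at 1.54 ± 0.277, 1.80 ± 0.395 and 1.07 ± 0.358 CPM in WT, edc-3 and edc-4 and at 0.381 ± 0.0964 CPM in the double mutant (SD, n = 4 each). All 4 double libraries lay below the other 12, and the interaction had an edgeR adjusted p of 0.416. The highest was pals-26, of a family known for its response to intracellular pathogens, at 1.62 ± 0.232, 2.09 ± 0.549, 1.42 ± 0.224 and 3.62 ± 0.862 CPM in WT, edc-3, edc-4 and double. A single mutant that was not called can still differ from WT. At F46C5.10 all 4 WT libraries lay above the other 12, and at B0563.8 all 4 lay below them.

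At Y65A5A.1, of the same class, both single mutants had means between those of WT and the double mutant. It was at 38.9 ± 4.73 CPM in WT, 44.9 ± 3.05 CPM in edc-3, 51.98 ± 3.55 CPM in edc-4 and 64.3 ± 3.79 CPM in the double mutant, with the double libraries above the other 12 (SD, n = 4 each). Its interaction of 0.10 (SE 0.14) was close to 0. For ppw-2, a PAZ and PIWI domain gene of the Argonaute family, the levels were 14.3 ± 1.68, 25.3 ± 4.34, 14.1 ± 1.73 and 25 ± 4.84 CPM in the same order, and the interaction was 0.0069 (SE 0.23). Its difference between edc-3 and WT (edgeR adjusted p = 0.051) was just outside the threshold and that between double and WT (adjusted p = 0.0456) just inside it.

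A further 7 of the 16880 genes tested were called against WT in the double mutant and in 1 single mutant. Of these, 0 were called for the interaction by edgeR, limma voom or DESeq2, and 0 had an unadjusted p under 0.05 in edgeR. Over all tested genes the edgeR shares were 0.0355% and 1.62%. The eggshell chitin synthase gene chs-1 was at 16.8 ± 7.22, 82.4 ± 20.7, 19.01 ± 3.74 and 87.2 ± 2.89 CPM in WT, edc-3, edc-4 and double (SD, n = 4 each), with an interaction of -0.10 (95% interval -0.83 to 0.64). For egg-1 and egg-2, whose products act at fertilization, the interactions were -0.28 and 0.03. The LysM domain gene lmd-1 was at 19.7 ± 1.55, 0.442 ± 0.204, 23.5 ± 2.59 and 0.697 ± 0.209 CPM in the same order, with an interaction of 0.45 (95% interval -0.27 to 1.18). It lies on chromosome I at 8609921 to 8611066, near edc-3 at 8602125 to 8605162, and the cause of its fall was not tested. The edc-4 transcript itself had an interaction of -0.36 (95% interval -0.75 to 0.03), and edc-3, which was called in no mutant, had one of 0.11 (95% interval -0.28 to 0.49). The bounds of these intervals give the sizes of interaction that the libraries allow.

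**Figure D4:**
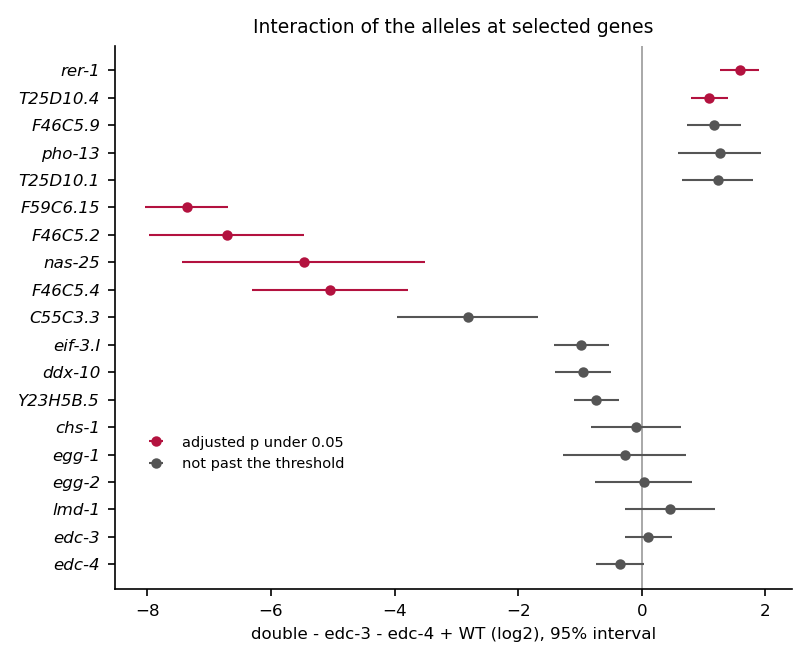
Interaction in log2 with its 95% interval (x axis) for 19 genes (y axis): the 6 called, neighbours and others named in the text, and edc-3 and edc-4. The intervals of the 6 called genes (red) lie away from 0, and those of chs-1, egg-1, egg-2, lmd-1, edc-3 and edc-4 (grey) include it. Those of F46C5.9, pho-13, T25D10.1, C55C3.3, eif-3.I, ddx-10 and Y23H5B.5 (grey) also lie away from 0. The intervals are not adjusted for the number of genes, and the colour follows the adjusted p.

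Of the 16880 genes tested, 12 were called in a single mutant and not in the double mutant. Their median interaction was -0.42, and F59C6.15 was the 1 called by edgeR. The same libraries enter the choice of these genes and the interaction, so these values are a description. Beside F59C6.15, DESeq2 called C55C3.3, pals-16 and abtm-1. At abtm-1 WT lay below the other 12 libraries. As at F59C6.15, the edc-3 libraries lay above the other 12 at 2 more genes of this class. C55C3.3 on chromosome IV was at 0.286 ± 0.0647 CPM in WT, 2.21 ± 0.331 CPM in edc-3, 0.199 ± 0.140 CPM in edc-4 and 0.207 ± 0.0605 CPM in the double mutant (SD, n = 4 each). Its interaction was -2.82 (SE 0.54; edgeR adjusted p = 0.128). The pseudogene Y51A2D.23 on chromosome V was at 0.107 ± 0.0441, 1.27 ± 0.415, 0.0524 ± 0.0729 and 0.108 ± 0.0939 CPM in WT, edc-3, edc-4 and double, with an interaction of -2.58 (SE 1.09; adjusted p = 0.9999). The family member pals-16 stood apart in edc-4 instead, at 3.80 ± 0.673 CPM against 1.59 ± 0.287, 2.36 ± 0.388 and 2.46 ± 0.156 CPM in WT, edc-3 and double, with an interaction of -1.20 (SE 0.26; edgeR adjusted p = 0.339). The pseudogene Y46G5A.6 was lowest in edc-4, at 4.803 ± 0.446 CPM, and stood at 14.2 ± 5.45, 8.12 ± 0.759 and 6.79 ± 0.677 CPM in WT, edc-3 and double. Its interaction was 1.31 (SE 0.32, edgeR adjusted p = 0.614), and in edgeR it passed without WT replicate 2 (adjusted p = 0.0031).

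Genes of the decapping machinery itself showed no call. All 20 processing body and decapping factors were tested, 0 passed by edgeR's test at an adjusted p of 0.05, and 0 had an unadjusted p under 0.05. Over all tested genes the shares were 0.0355% and 1.62%, so 0 of 20 does not set this list apart. All 20 had a 95% interval inside -1 to 1, with 6 above 0 and a median of -0.07, against 45.45% and -0.02 over all genes. The decapping enzyme gene dcap-2 was at 87.7 ± 9.68, 96.5 ± 11.2, 95.98 ± 4.76 and 99.6 ± 2.63 CPM in WT, edc-3, edc-4 and double (SD, n = 4 each), with an interaction of -0.08 (95% interval -0.38 to 0.22). Its activator gene dcap-1 had an interaction of -0.24 (95% interval -0.56 to 0.07), and patr-1, for a scaffold that joins deadenylation to decapping, one of -0.29 (95% interval -0.71 to 0.13). For xrn-1, the exonuclease of this route, the interaction was -0.10 (95% interval -0.38 to 0.18). The helicase gene cgh-1 varied more between libraries, at 149 ± 50.1, 261 ± 76.5, 195 ± 26.8 and 297 ± 64.9 CPM, and its interaction was -0.21 (95% interval -0.91 to 0.50).

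Among 37 genes of deadenylation and mRNA decay, 0 were called by edgeR's test and 0 had an unadjusted p under 0.05, against 0.0355% and 1.62% of all tested genes. Of the 37, 17 were above 0 and 36 intervals lay inside -1 to 1. Their lowest value was -0.20, at the exosome gene exos-1. Their highest was 1.09 (SE 0.65), at fog-3, a gene with a mean of 0.487 CPM. The interval of fog-3 ran from -0.28 to 2.46, so it includes 0 and reaches beyond 1. The Argonaute and other small RNA pathway genes, 38 tested, had 19 above 0, a median of -0.0072 and values from -0.37 (prg-1, the piRNA Argonaute) to 0.19 (rde-1, an Argonaute of RNA interference). Among 33 translation initiation factor genes, eif-3.I was the 1 with an unadjusted p under 0.05, against 1.62% of all tested genes, and the median was -0.04. All 75 tested cytosolic ribosomal protein genes had an interval inside -1 to 1, with a median of -0.11 and values between -0.27 and 0.25.

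Maternal and stage-dependent lists had small medians that moved with the libraries numbered 4. Over all lists, 20 of 23 medians changed sign in at least 1 of 24 other settings, and the 3 that did not were the histone genes, the respiratory chain genes and the F-box A genes. The early zygotic genes, 41 tested, had 9 above 0 and a median of -0.20, which became 0.07 without those libraries and 0.05 without edc-4 replicate 4 alone. Oocyte, eggshell and fertilization genes, 36 tested, had 12 above 0 and a median of -0.04, which became 0.26. Muscle and neuronal synapse genes, with 12 of 36 and 12 of 33 above 0, had medians of -0.06 and -0.04, which became -0.23 and -0.20. No member of these 4 lists was called by edgeR's test or had an unadjusted p under 0.05, against 0.0355% and 1.62% of all tested genes. A further fit had the stage score, which holds the early zygotic and muscle genes themselves, as a covariate. In that fit the medians were -0.11 (early zygotic), 0.00028 (oocyte), -0.09 (muscle) and -0.07 (neuronal).

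Of 205 tested small nucleolar RNA genes, F59C6.15 was the 1 called, and 118 were above 0, with a median of 0.06. An unadjusted p under 0.05 was reached by 6 of the 205, against 1.62% of all tested genes. After F59C6.15 the lowest value was -1.34, at Y110A2AL.20, a gene with a mean of 0.260 CPM. Histone genes had 5 of 59 above 0 and a median of -0.19 (-0.06 without the libraries numbered 4), with 0 called by edgeR's test and 1 at an unadjusted p under 0.05. In the pals family 17 of 21 were above 0, with a median of 0.16, which became -0.19 without those libraries. Of the 21, 2 had an unadjusted p under 0.05, against 1.62% of all tested genes. Histones and the pals family were the lists with the lowest and highest shares above 0 among those with at least 5 tested genes.

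In the remaining 11 lists 0 genes were called by edgeR, limma voom or DESeq2, against 0.0355% of all tested genes by edgeR. Proteasome subunit genes had 7 of 33 above 0 and a median of -0.08, which became 0.14 without the libraries numbered 4, 0.05 without edc-4 replicate 4 and 0.04 without WT replicate 4. The respiratory chain genes of the nucleus had 10 of 44 above 0 and a median of -0.09. Cytosolic heat shock genes had 9 of 17 above 0, with values from -0.94 (hsp-12.6) to 0.78 (hsp-16.2). Cytochrome P450 genes had 21 of 37 above 0, nuclear hormone receptor genes 122 of 217 and MATH and MATH-BTB genes 29 of 54, with medians of 0.06, 0.02 and 0.0099. F-box A genes had 39 of 114 above 0 with 5 at an unadjusted p under 0.05, cuticle collagen genes 47 of 111 with 1 such gene, and pseudogenes 307 of 579 with 20. Over all tested genes, 45.45% were above 0 and 1.62% had an unadjusted p under 0.05. The major sperm protein list had 6 of 56 genes tested and a median of -0.14, and vit-1, the 1 vitellogenin tested, had a value of 0.51. In 22 of the 23 lists no member was called by edgeR, and the exception was F59C6.15; DESeq2 added pals-16 and eif-3.I.

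**Figure D5:**
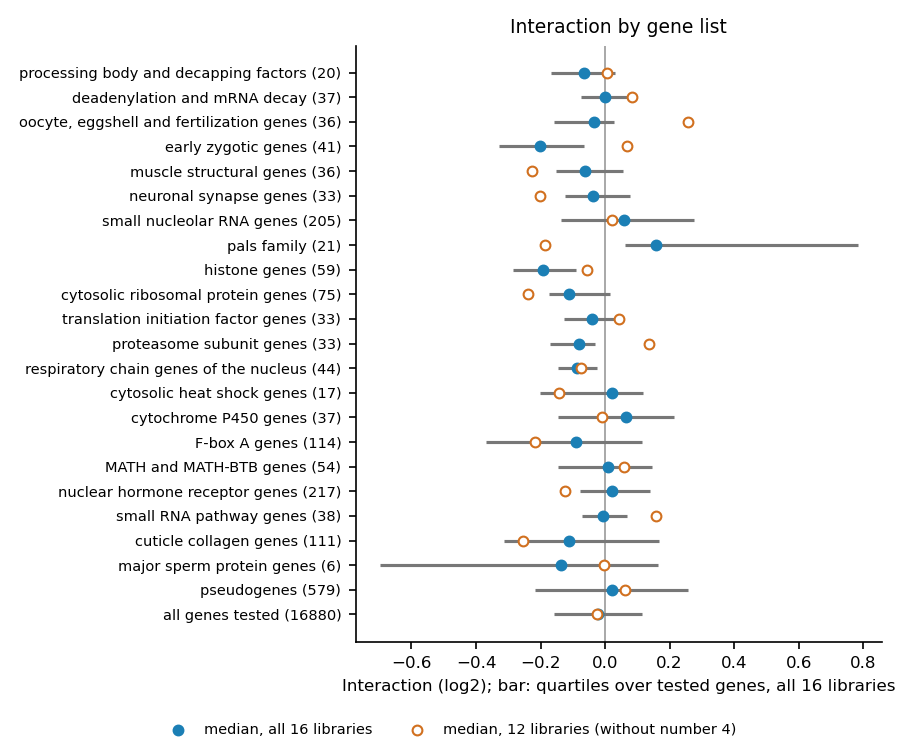
Median interaction in log2 (x axis) for each gene list with at least 5 tested genes (y axis, number tested in parentheses) and for all genes tested. Filled points are medians over all 16 libraries with bars spanning the quartiles over genes, and open points are medians without the 4 libraries numbered 4; most medians lie within 0.2 of 0 and several change sign.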

How the data were processed

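The deposited values are raw counts of reads for each gene in each library. The submitters' processing notes name Trimmomatic, STAR, HTSeq, edgeR, limma and the WBcel235 build; versions, annotation release and strand setting were not given in the sources used here. Positions came from the Ensembl annotation of WBcel235, and current symbols were matched by gene identifier. The genes and lists described were chosen with earlier results of these data known.

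In R 4.3.3, edgeR 4.0.16 filtered genes (filterByExpr, minimum count 10, minimum total 15), scaled libraries with TMM and fitted 1 mean per genotype (glmQLFit, glmQLFTest; common biological coefficient of variation 0.193). P-values were two-sided and adjusted by the Benjamini-Hochberg method over 16880 genes, with a threshold of 0.05. A standard error is the log2 value divided by the root of F. Levels are TMM-scaled CPM. No 2 replicates agreed within sampling noise (chi-square per degree of freedom 11.1 to 201). Named genes were edc-3, edc-4, every gene called, chs-1, egg-1, egg-2, lmd-1 and the extremes of each list; neighbours, genes near the threshold and members of the classes were named after their values were seen. DESeq2 1.42.0, limma 3.58.1 and other settings were alternatives. The fit was tested on simulated data.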

Additional observations from a re-analysis of the deposited data

Results flagged for a closer look

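At the 6 genes called by edgeR, the change that goes with the edc-3 allele differed with and without the edc-4 allele. The same test chose these genes, and at 5 of them WT stood apart from all 3 mutant strains. An allele and other differences of its strain cannot be told apart here. The interaction was -7.36 for F59C6.15, -6.72 for F46C5.2, 1.59 for rer-1, -5.05 for F46C5.4, 1.09 for T25D10.4 and -5.47 for nas-25 on the log2 scale. A single library stood far from the others of its group in 2 of 48 groups of 4 examined, where chance gives about 1 in 20. These were nas-25 in WT, where replicate 5 was at 0.0235 CPM and the others at 0, and egg-1 in edc-4, where the highest library was at 11.6 CPM.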

How the results depend on the processing

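The count of 6 genes called for the interaction became 10 with no filter on low counts, 17 with the stage score as a covariate and 17 by DESeq2, and the 6 genes were among those called each time. It ranged from 5 to 7 when 1 library was left out, and from 4 to 8 without the libraries numbered 2, 3, 4 or 5; the choices of 2, 3 and 5 were made after seeing the data. F59C6.15, F46C5.2, rer-1 and F46C5.4 passed in all 16 fits without 1 library and in every other log2 setting run. T25D10.4 missed the threshold without the libraries numbered 2 and without those numbered 5. Not every same-numbered pair correlated above 0.1, so the numbers were not taken to pair libraries: 9 of 12 pairs between mutants did (-0.05 to 0.66) and 2 of 12 pairs with WT (-0.49 to 0.21), 7 of 16 libraries correlated best with their own number, and the replicate block gave 7 calls. Signs changed at 5 genes not called. For chs-1 the interaction became 0.050 with effects additive in CPM and 0.25 without the libraries numbered 4, and it ran from -0.32 to 0.12 without 1 library. For lmd-1 it became -0.32 additive in CPM and -0.089 without the libraries numbered 5, and for edc-3 -0.0094 without those numbered 2. For egg-1 it became 0.053 additive in CPM and ran from -0.57 to 0.0045 without 1 library. For egg-2 it became -0.015 without scaling factors, -0.29 without the libraries numbered 2 and -0.11 without those numbered 5, and ran from -0.13 to 0.24 without 1 library. The cause of these changes was not tested. List medians were not computed additive in CPM, since the unit differs. Under the other settings 547 list medians moved by less than the spread between replicates and 5 by more, among them the pals family (-0.19) and the nuclear hormone receptor genes (-0.12) without the libraries numbered 4.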
